A study of Mus musculus with 11 samples.

Results

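Potassium channel genes were compared between 3 kinds of motor neuron from mouse embryos. The members are all genes whose array probe set carries a single annotated symbol that starts with Kcn followed by a letter, with 1 probe set per gene, the one with the highest mean over all 11 arrays. This gave 84 of the 18193 genes with such a probe set. By name they comprise 31 voltage-gated (Kv) subunits, 15 inward rectifiers (Kir) and 12 2-pore (K2P) leak channels. The others are 8 members of the calcium- or sodium-activated channel families, 15 auxiliary subunits and 3 noncoding transcripts.

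All embryos were C57/BL6 and carried Hb9::GFP, in which the promoter of the motor neuron gene Hb9 (Mnx1) drives a green fluorescent protein. The 4 phrenic arrays hold GFP-positive neurons filled with rhodamine dextran through the phrenic nerve, which runs to the diaphragm. The 3 LMC radial arrays hold lateral motor column neurons filled through the radial nerve of the forelimb. The 4 C3-C5 GFP-only arrays hold cells of cervical segments C3 to C5 that had the reporter alone, and the labels do not say whether phrenic neurons that the dextran missed were kept out of them. The labels give no embryo age and name no segment for LMC radial neurons, so in each comparison with these neurons segment and cell type cannot be told apart. The description field of the C3-C5 samples speaks of rhombomere cells instead, and the titles were followed here. The design asked how each type differs from the overall expression. Nothing in the labels says that replicates came from separate embryos, so the p-values measure array-to-array spread, which may be technical.

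Potassium channels let potassium leave or enter the cell and so set a neuron's resting potential, the length of its action potentials and its firing rate. Kv channels open on depolarization, Kir channels pass current near rest, K2P channels leak, and calcium-activated channels shape the potential after a spike. Pore-forming subunits assemble with auxiliary subunits such as Kvβ proteins on Kv1 channels and KChIP proteins on Kv4 channels, which alter their gating and transport. In motor neurons these channels are known for setting recruitment and firing pattern. Values below are log2 RMA values. RMA corrects background, normalizes across arrays and summarises the probes of a set. Probe sets differ in how strongly they respond, so values are compared between cell types and not between genes. In bulk samples, fewer cells that express a gene and less RNA per cell cannot be told apart.

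The 8 motor neuron markers averaged 8.61 to 8.93 across phrenic, 8.07 to 8.31 across LMC radial and 8.84 to 9.06 across C3-C5 GFP-only arrays. Mnx1 was at 9.01 ± 0.09 in phrenic, 8.14 ± 0.07 in LMC radial and 9.07 ± 0.16 in C3-C5 GFP-only arrays (SD, n = 4, 3 and 4). Isl1 was at 12.32, 9.63 and 11.99 in that order, with LMC radial arrays spread from 8.26 to 10.92, and both genes passed as lower in LMC radial than in each other type. The lower LMC radial mean of the 8 markers includes these 2 genes, and whether LMC radial arrays held fewer motor neurons was not tested. Isl2 passed as lower in phrenic and in LMC radial than in C3-C5 GFP-only neurons, Slc18a3, Prph, Nefm, Chat and Slc5a7 passed in no pair, and Chat and Slc5a7 were dim. Array medians lay between 4.48 and 4.63, so a value below 5 lies near background. The 25th percentile lay between 3.18 and 3.20 in replicates 2 and 3 of both the phrenic and the C3-C5 GFP-only type and between 3.26 and 3.38 in the other 7 arrays, and these 2 array sets were also fitted apart. All 3 LMC radial arrays were in the higher set, at 3.32 to 3.38, beside at most 3.30 in the other types. Their medians were 4.48 to 4.51, beside 4.54 to 4.63. Array set and cell type thus partly coincide in comparisons with LMC radial neurons, which could not be made in the lower set.

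Markers of other cells were present too. The 12 mesenchyme markers averaged 5.58 to 7.36 across phrenic, 5.33 to 6.54 across LMC radial and 4.75 to 5.22 across C3-C5 GFP-only arrays, and 2 of them, Fn1 and Postn, passed as higher in phrenic than in C3-C5 GFP-only arrays. The 9 progenitor and glia markers measured averaged 6.16 to 7.48 in phrenic, 6.03 to 6.61 in LMC radial and 5.90 to 6.12 in C3-C5 GFP-only arrays, and 1, Slc1a3, passed as higher in phrenic than in C3-C5 GFP-only arrays (1.73, limma adjusted p = 0.045). Sox2 averaged 8.13 in phrenic, 6.92 in LMC radial and 6.62 in C3-C5 GFP-only arrays, while Olig1 and Olig2 were below 5 on all 11 arrays. The 9 endothelium and pericyte markers averaged 4.07 to 4.81 in phrenic, 4.33 to 4.79 in LMC radial and 4.02 to 4.18 in C3-C5 GFP-only arrays. Of these Pecam1, Cdh5, Kdr, Tie1 and Abcc9 were below 5 on all 11 arrays, whereas Pdgfrb was above 5 on all, and Rgs5 averaged 5.94 in phrenic, 7.44 in LMC radial and 5.93 in C3-C5 GFP-only arrays. The 6 interneuron markers measured averaged 4.47 to 5.82, 4.02 to 4.76 and 4.25 to 4.64, and the 4 sensory neuron markers measured 5.63 to 6.22, 5.80 to 5.88 and 5.67 to 6.14, in the same order of types. Single markers differed widely within these lists. In that order the sensory marker Pou4f1 averaged 9.43, 9.12 and 9.24, and the interneuron marker Slc17a6 averaged 7.08, 5.72 and 7.05. Scn10a, Lhx5 and En1 were below 5 on all 11 arrays. Phrenic replicate 4 had the highest mesenchyme (7.36), progenitor and glia (7.48), interneuron (5.82) and sensory neuron (6.22) mean and the lowest motor neuron mean (8.61) of its type. As a measure of RNA quality, the excess of the 3′ over the 5′ Actb control on the log2 scale averaged 1.71 ± 0.48 in phrenic, 1.06 ± 0.06 in LMC radial and 1.53 ± 0.43 in C3-C5 GFP-only arrays (SD, n = 4, 3 and 4). The part of other cells and of RNA quality in the results below was not tested.

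Phrenic neurons had less Kcnab1, Kcnip1 and Kcnd2 RNA than LMC radial neurons, and more Kcnc1 and Kcnc4. Between these types the differences of the 5 genes were between 3.87-fold and 5.62-fold. Of the 84 members, 12 passed between phrenic and LMC radial neurons at an adjusted p below 0.05 (limma, Benjamini-Hochberg over all 45037 probe sets), 5 higher and 7 lower in phrenic, which is 14.3% of members beside 6.88% of all genes (3.88% higher and 3.0% lower). Between phrenic and C3-C5 GFP-only neurons 4 members passed, 2 higher and 2 lower in phrenic, 4.76% beside 2.74% of all genes (1.43% and 1.31%). Between LMC radial and C3-C5 GFP-only neurons 5 passed, 3 higher and 2 lower in LMC radial, 5.95% beside 3.73% of all genes (1.7% and 2.03%). Among the 37 members with a mean of 5 or more, 8, 4 and 4 passed in these comparisons, or 21.6%, 10.8% and 10.8%, beside 8.57%, 4.04% and 3.81% of all genes at that level. The median log2 difference over the members was 0.05, -0.01 and -0.01 in these 3 comparisons, beside -0.00, 0.01 and 0.01 over all genes, and members passed in both directions. Without phrenic replicate 4, which lay apart in several members and in the marker lists above, 18, 7 and 9 members passed, or 21.4%, 8.33% and 10.7%, beside 9.75%, 3.58% and 5.67% of all genes. This array was singled out from these same values, so passes without it, here and below, are description only and no added support.

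Against the mean of the other 2 types, 9 members passed in phrenic neurons (10.7% beside 4.86% of all genes). The 5 higher ones were Kcnc4, Kcnh5, Kcnc1, Kcnc2 and Kcnk3, and the 4 lower ones Kcnd2, Kcnab1, Kcnip1 and Kcnj3. In LMC radial neurons 12 passed (14.3% beside 7.07%). Higher there were Kcnab1, Kcnd2, Kcnip1, Kcnj1, Kcnk13 and Kcnmb1, and lower were Kcnc1, Kcnc4, Kcnn2, Kcnt1, Kcna2 and Kcnu1. In C3-C5 GFP-only neurons 2 passed, Kcnc1 as higher and Kcnj1 as lower (2.38% beside 1.2%). With the replicate number as a block Kcnj1 no longer passed there (-0.70 ± 0.13, limma adjusted p = 0.0563), and Kcnq3 passed as higher (1.03 ± 0.16, adjusted p = 0.0323). This comparison includes LMC radial arrays, which the replicate numbers do not pair with the others. Whichever array was left out, 5 of the 9, 4 of the 12 and 0 of the 2 still passed by limma. Over all 6 comparisons 16 members (19.0%, beside 10.3% of all genes) passed at least once and 68 did not. The 6 comparisons share arrays and are not independent of each other.

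**Figure D1:**
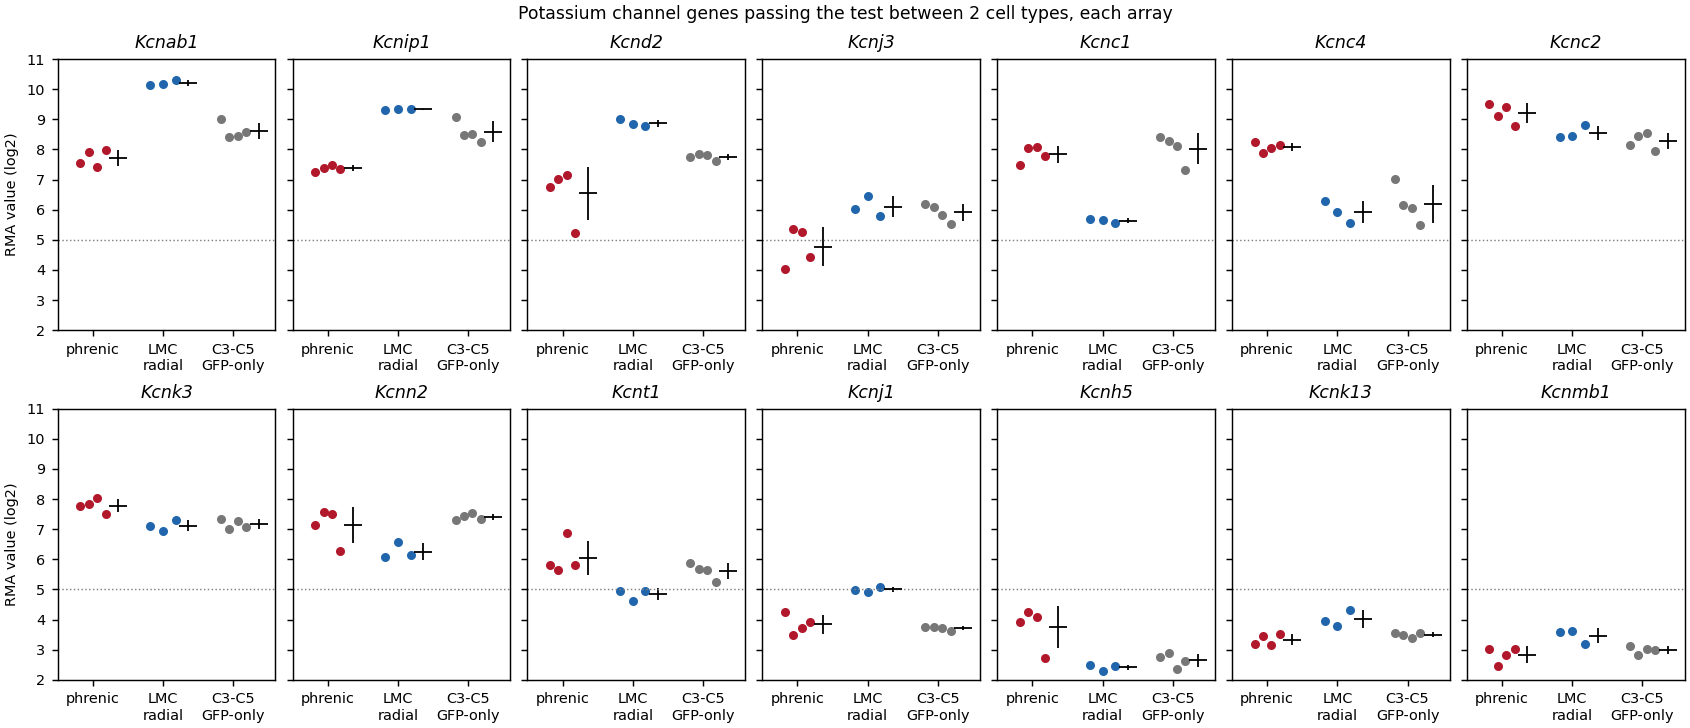
RMA value (log2, vertical axis) of the 14 potassium channel genes that passed between any 2 cell types. Each point is an array of phrenic, LMC radial or C3-C5 GFP-only neurons from left to right, the black tick and bar are the mean ± SD, and the dotted line marks 5. Kcnab1, Kcnip1 and Kcnd2 are highest in the 3 LMC radial arrays, Kcnc4 is highest in the 4 phrenic arrays, Kcnc1 is lowest in the 3 LMC radial arrays, and the points of Kcnh5, Kcnk13 and Kcnmb1 all lie below 5.

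The Kv3 subunits are fast-activating channels that let neurons fire brief action potentials at high rates. All 3 members of this group had a mean of 5 or more and all passed in at least 1 pairwise comparison, each with its own pattern. Of all genes at that level, 10.9% passed in at least 1 pair. Kcnc4 (Kv3.4; probe set 1425090_s_at, chromosome 3) read 8.24, 7.89, 8.06 and 8.14 in phrenic arrays, 6.29, 5.92 and 5.57 in LMC radial arrays, and 7.02, 6.15, 6.06 and 5.50 in C3-C5 GFP-only arrays. Every phrenic array lay above every other array, and the other types overlapped. The gene was 4.46-fold higher in phrenic than in LMC radial neurons (log2 difference 2.16 ± 0.30, SE; limma adjusted p = 0.00168) and 3.73-fold higher than in C3-C5 GFP-only neurons (1.90 ± 0.27, adjusted p = 0.00516). Both calls held whichever array was left out, but both were lost within the higher array set, which includes all LMC radial arrays. Within the lower array set the difference from C3-C5 GFP-only was 1.87 ± 0.13 (adjusted p = 0.0305) and within the higher set 1.93 ± 0.48 (adjusted p = 0.193). The single other probe set of Kcnc4, with type means of 5.45 in phrenic, 5.39 in LMC radial and 5.15 in C3-C5 GFP-only, did not pass in these comparisons (adjusted p = 0.894 and 0.597), so the call rests on 1 of 2 probe sets.

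Kcnc1 (Kv3.1; 1443855_at, chromosome 7) read 7.47, 8.04, 8.07 and 7.79 in phrenic arrays, 5.69, 5.67 and 5.55 in LMC radial arrays, and 8.43, 8.28, 8.10 and 7.31 in C3-C5 GFP-only arrays. LMC radial arrays lay apart at the bottom, while the other types overlapped. The gene was 4.62-fold higher in phrenic than in LMC radial neurons (2.21 ± 0.25, limma adjusted p = 0.000429) and 5.25-fold lower in LMC radial than in C3-C5 GFP-only neurons (-2.39 ± 0.25, adjusted p = 0.000704). Within the higher array set the second of these calls was lost. Phrenic minus C3-C5 GFP-only was -0.19 ± 0.23 (limma adjusted p = 0.835). Another of its probe sets, with means of 5.30, 4.62 and 6.12 in phrenic, LMC radial and C3-C5 GFP-only, passed between LMC radial and C3-C5 GFP-only (-1.50, limma adjusted p = 0.00727) but not between phrenic and LMC radial (0.67, adjusted p = 0.122).

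Kcnc2 (Kv3.2; 1455258_at, chromosome 10) read 9.51, 9.13, 9.42 and 8.77 in phrenic arrays, 8.40, 8.44 and 8.81 in LMC radial arrays, and 8.16, 8.43, 8.53 and 7.96 in C3-C5 GFP-only arrays. All phrenic arrays lay above all C3-C5 GFP-only arrays, and phrenic replicate 4 fell within the LMC radial range. It was 1.92-fold higher in phrenic than in C3-C5 GFP-only neurons (0.94 ± 0.19, limma adjusted p = 0.0296). This call was lost when any one of phrenic replicates 1, 2 and 3 or C3-C5 GFP-only replicates 1, 2 and 4 was left out, with adjusted p up to 0.0912. Phrenic minus LMC radial was 0.66 ± 0.20 (limma adjusted p = 0.0821), and 0.81 ± 0.18 without phrenic replicate 4 (limma adjusted p = 0.0218).

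The Kv4 subunits carry the A-type current, which inactivates quickly and delays firing, and are assembled with KChIP and DPP proteins. The 3 pore subunits had a mean of 5 or more and differed among themselves. Kcnd2 (Kv4.2; 1450773_at, chromosome 6) read 6.76, 7.01, 7.15 and 5.24 in phrenic arrays, 9.01, 8.83 and 8.78 in LMC radial arrays, and 7.76, 7.85, 7.80 and 7.60 in C3-C5 GFP-only arrays. The types did not overlap, with LMC radial highest and phrenic lowest, and phrenic replicate 4 lay far below its replicates. Kcnd2 was 5.05-fold lower in phrenic than in LMC radial neurons (-2.34 ± 0.37, limma adjusted p = 0.00392), a call kept whichever array was left out. The differences between phrenic and C3-C5 GFP-only (-1.22 ± 0.34, limma adjusted p = 0.117) and between LMC radial and C3-C5 GFP-only (1.12 ± 0.37, adjusted p = 0.123) did not pass with all arrays. Without phrenic replicate 4 both passed, at -0.78 ± 0.12 (limma adjusted p = 0.00739) and 1.12 ± 0.12 (adjusted p = 0.00114). All 3 other probe sets of Kcnd2 passed as lower in phrenic than in LMC radial neurons.

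Kcnd3 (Kv4.3; 1435720_at, chromosome 3) had the highest mean of all members, 9.99. It averaged 9.78 ± 0.07 in phrenic, 10.12 ± 0.11 in LMC radial and 10.11 ± 0.20 in C3-C5 GFP-only arrays (SD, n = 4, 3 and 4). Its phrenic arrays were all below those of the other types, but phrenic minus LMC radial was -0.34 ± 0.12 (limma adjusted p = 0.137) and did not pass. Kcnd1 (Kv4.1) averaged 6.56 in phrenic, 5.80 in LMC radial and 6.28 in C3-C5 GFP-only arrays, with phrenic minus LMC radial at 0.76 ± 0.22 (limma adjusted p = 0.0726).

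Kcnip1 encodes KChIP1, a calcium sensor that binds Kv4 subunits (1448459_at, chromosome 11). It read 7.26, 7.38, 7.50 and 7.36 in phrenic arrays, 9.31, 9.33 and 9.35 in LMC radial arrays, and 9.08, 8.48, 8.52 and 8.26 in C3-C5 GFP-only arrays. The types did not overlap, in the same order as for Kcnd2. It was 3.87-fold lower in phrenic than in LMC radial neurons (-1.95 ± 0.17, limma adjusted p = 7.09e-05) and 2.31-fold lower than in C3-C5 GFP-only neurons (-1.21 ± 0.15, adjusted p = 0.00242), and both calls held whichever array was left out. Within the higher and lower array sets the difference from C3-C5 GFP-only was -1.35 ± 0.26 (limma adjusted p = 0.109) and -1.06 ± 0.12 (adjusted p = 0.0762). LMC radial was 1.68-fold higher than C3-C5 GFP-only (0.75 ± 0.17, limma adjusted p = 0.0351), a call lost without any one of LMC radial replicates 1, 2 and 3 or C3-C5 GFP-only replicates 2, 3 and 4 (adjusted p up to 0.108). That call was also lost with the floor at 5, the replicate block, gene means or the array set as a term, and within the higher array set. A second probe set, with means of 6.51 in phrenic, 8.80 in LMC radial and 8.17 in C3-C5 GFP-only, passed against both other types as lower in phrenic (-2.29, limma adjusted p = 0.00674, against LMC radial; -1.66, adjusted p = 0.0489, against C3-C5 GFP-only). The other KChIP genes, Kcnip2, Kcnip3 and Kcnip4, had means below 5.

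The DPP partners of Kv4, which speed its gating, came from the list of 20 measured channel partners. Dpp10 read 7.74, 7.61, 7.44 and 6.84 in phrenic arrays, 5.0, 4.61 and 5.19 in LMC radial arrays, and 6.40, 6.76, 6.82 and 5.19 in C3-C5 GFP-only arrays. It was highest in phrenic neurons, the opposite order to Kcnd2 and Kcnip1, and passed between phrenic and LMC radial, at least 5.07-fold higher with values below 5 raised to 5 (2.47 ± 0.37 as measured, limma adjusted p = 0.00267; 0.02 with the floor). Dpp6 averaged 7.32 in phrenic, 6.88 in LMC radial and 7.41 in C3-C5 GFP-only arrays and passed in none of the pairwise comparisons. Of the 20 partners, 4 (beside 3.88% of all genes) passed as higher and 0 (beside 3.0%) as lower in phrenic than in LMC radial neurons by limma, where 9 had an unadjusted p below 0.05 in either direction. The median partner difference was 0.04, beside -0.00 over all genes.

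**Figure D2:**
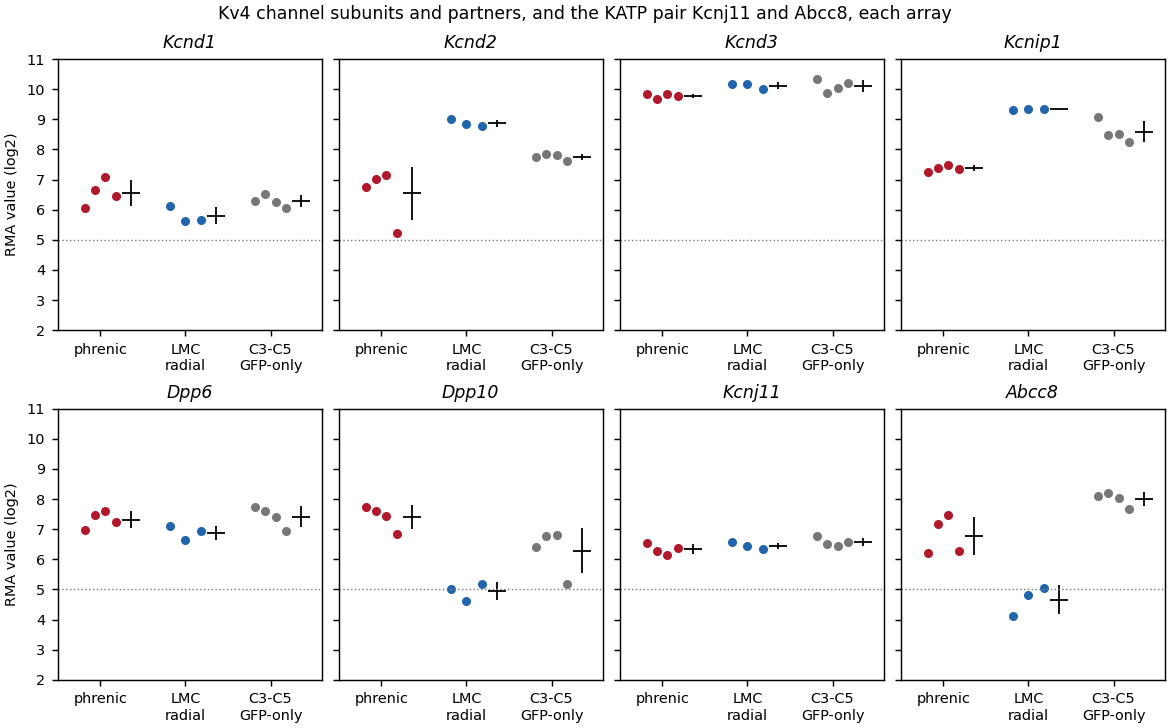
RMA value (log2, vertical axis) of Kv4 pore subunits, their partners Kcnip1, Dpp6 and Dpp10, and the KATP channel pair Kcnj11 and Abcc8. Points are arrays, from left to right phrenic, LMC radial and C3-C5 GFP-only, the black tick and bar are the mean ± SD, and the dotted line marks 5. Kcnd2 and Kcnip1 are lowest in phrenic arrays, Dpp10 is lowest in LMC radial arrays apart from C3-C5 GFP-only replicate 4 at 5.19, and Abcc8 varies between types while Kcnj11 stays between 6.13 and 6.77.

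The Kv1 subunits open at low voltage near the axon's initial segment and nodes. Kvβ proteins bind their inner face, and Kvβ1 confers fast inactivation. Kcnab1 (Kvβ1; 1448468_a_at, chromosome 3) read 7.54, 7.91, 7.42 and 8.0 in phrenic arrays, 10.14, 10.17 and 10.32 in LMC radial arrays, and 8.99, 8.42, 8.44 and 8.56 in C3-C5 GFP-only arrays. The types did not overlap, again with LMC radial highest and phrenic lowest. Phrenic was 5.62-fold lower than LMC radial (-2.49 ± 0.18, limma adjusted p = 2.31e-05), and LMC radial was 3.04-fold higher than C3-C5 GFP-only (1.60 ± 0.18, adjusted p = 0.00123); both calls held whichever array was left out. Phrenic was 1.85-fold lower than C3-C5 GFP-only (-0.89 ± 0.17, limma adjusted p = 0.0209). That last call was lost without phrenic replicate 1 or C3-C5 GFP-only replicate 4 (limma adjusted p = 0.0597 and 0.0594) and with the replicate number as a block (-0.89 ± 0.18, adjusted p = 0.0535). It was also lost with values below 5 raised to 5, within each array set, and when only these 2 types were fitted. The call between LMC radial and C3-C5 GFP-only was lost within the higher array set. The other probe set of Kcnab1, with all type means below 5, passed in the same directions between phrenic and LMC radial (limma adjusted p = 0.000184) and between LMC radial and C3-C5 GFP-only (adjusted p = 0.00255).

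Of the 7 Kv1 pore subunits, 0 passed in the pairwise comparisons by limma, with 1 at an unadjusted p below 0.05 in each, and 2 had a mean of 5 or more. Kcna4 averaged 7.73 in phrenic, 7.06 in LMC radial and 6.59 in C3-C5 GFP-only arrays (phrenic minus C3-C5 GFP-only 1.14 ± 0.33, limma adjusted p = 0.128). Kcna1, the axonal Kv1.1, was below 5 in 10 of 11 arrays and reached 5.86 in phrenic replicate 4. Kcna2 read 4.35, 5.05, 4.89 and 3.72 in phrenic arrays, 3.26, 3.67 and 3.47 in LMC radial arrays, and 4.10, 4.69, 4.56 and 4.20 in C3-C5 GFP-only arrays, so it lay near background. It passed only as lower in LMC radial neurons than in the mean of the others (-0.97 ± 0.25, limma adjusted p = 0.0443), a call that held without phrenic replicate 4 or C3-C5 GFP-only replicate 1 and was lost without any one of the other 9 arrays (adjusted p up to 0.169). Kcnab2 and Kcnab3, the other Kvβ genes, averaged 5.07 and 5.43 in phrenic, 5.10 and 4.92 in LMC radial, and 5.10 and 5.49 in C3-C5 GFP-only arrays and did not pass.

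**Figure D3:**
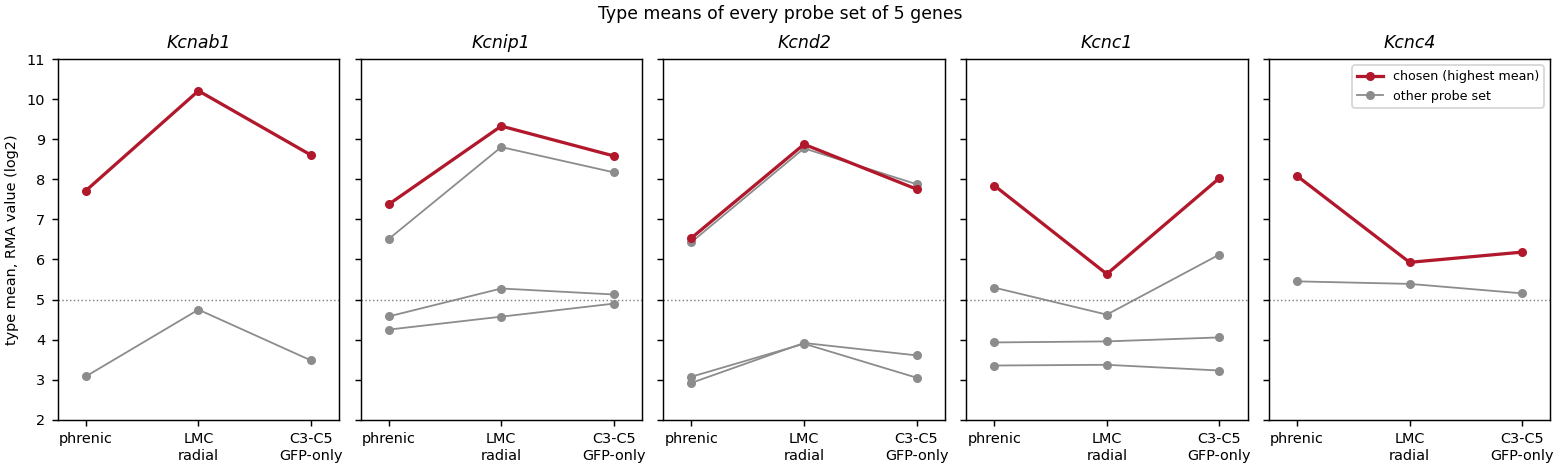
Type mean of the RMA value (log2, vertical axis) for every probe set of Kcnab1, Kcnip1, Kcnd2, Kcnc1 and Kcnc4, in phrenic, LMC radial and C3-C5 GFP-only neurons from left to right. Red lines are the probe set with the highest mean and grey lines the others. For Kcnip1 and Kcnd2 a second bright probe set runs in parallel with the red line, while the second probe set of Kcnc4 stays between 5.15 and 5.45.

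Promoters are shown for these 5 genes, which had the largest differences between phrenic and LMC radial neurons among the members that passed with a mean of 5 or more. Each is the RefSeq reference (GRCm38.p6) from 250 bases before to 50 after the first listed start, 5′ to 3′ on the gene's strand. Capitals mark TAAT on either strand (TAAT or ATTA), the core bound by homeodomain proteins such as Mnx1, and overlapping matches were each counted. Kcnab1 lies at chr3:64948962-64949261 on the plus strand, Kcnip1 at chr11:33993144-33993443 on the minus strand, Kcnd2 at chr6:21215096-21215395 on the plus strand, Kcnc1 at chr7:46396218-46396517 on the plus strand and Kcnc4 at chr3:107458849-107459148 on the minus strand.
Kcnab1: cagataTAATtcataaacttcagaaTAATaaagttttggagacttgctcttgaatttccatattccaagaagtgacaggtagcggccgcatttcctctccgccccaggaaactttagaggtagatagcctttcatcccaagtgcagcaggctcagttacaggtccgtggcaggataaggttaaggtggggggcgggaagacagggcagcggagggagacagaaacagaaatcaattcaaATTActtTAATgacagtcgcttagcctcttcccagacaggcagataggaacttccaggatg
Kcnip1: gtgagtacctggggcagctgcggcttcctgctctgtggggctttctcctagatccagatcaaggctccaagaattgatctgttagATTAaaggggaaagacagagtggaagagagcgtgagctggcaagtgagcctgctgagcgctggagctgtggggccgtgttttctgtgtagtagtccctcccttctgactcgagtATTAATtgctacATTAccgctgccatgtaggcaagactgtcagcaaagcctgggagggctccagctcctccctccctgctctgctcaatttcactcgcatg
Kcnd2: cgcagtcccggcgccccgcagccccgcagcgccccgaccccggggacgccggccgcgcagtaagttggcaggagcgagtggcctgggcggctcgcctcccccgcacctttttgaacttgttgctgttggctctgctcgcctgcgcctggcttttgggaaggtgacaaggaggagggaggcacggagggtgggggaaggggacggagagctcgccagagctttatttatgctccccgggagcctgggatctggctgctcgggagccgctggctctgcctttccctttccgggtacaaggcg
Kcnc1: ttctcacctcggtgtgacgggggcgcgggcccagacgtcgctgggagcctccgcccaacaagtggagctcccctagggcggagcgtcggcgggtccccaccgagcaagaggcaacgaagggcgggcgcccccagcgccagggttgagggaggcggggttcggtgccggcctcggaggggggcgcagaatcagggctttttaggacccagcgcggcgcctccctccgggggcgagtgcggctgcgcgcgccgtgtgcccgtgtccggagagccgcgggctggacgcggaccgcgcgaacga
Kcnc4: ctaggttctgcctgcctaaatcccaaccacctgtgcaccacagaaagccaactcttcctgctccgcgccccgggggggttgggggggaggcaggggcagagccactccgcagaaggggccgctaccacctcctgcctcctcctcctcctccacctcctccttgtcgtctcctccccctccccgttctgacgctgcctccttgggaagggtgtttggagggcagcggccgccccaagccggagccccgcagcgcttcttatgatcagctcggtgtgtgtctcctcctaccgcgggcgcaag

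The Kcnab1 and Kcnip1 windows each held 4 TAAT matches and 7 CpG dinucleotides. The windows of Kcnd2, Kcnc1 and Kcnc4 held 0 TAAT and 26, 41 and 17 CpG. TAAT was present in 58.0% of 32851 RefSeq promoters of this length, and in 44 of the 89 promoters (49.4%) of the 64 members that the promoter table holds. The median CpG number was 9 in the members' promoters and 7 in all. Kcnab1 and Kcnip1 have 3 listed starts each, and the arrays do not tell which was used. A match describes the letters only.

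The Kv7 and EAG families supply slow currents that steady the membrane. Of 3 Kv7 genes, 0 passed in the pairwise comparisons by limma; with all arrays, 1 had an unadjusted p below 0.05 between phrenic and LMC radial, 1 between LMC radial and C3-C5 GFP-only, and 0 between phrenic and C3-C5 GFP-only. Kcnq3, an M-current subunit, read 6.43, 6.34, 6.76 and 5.07 in phrenic arrays, 5.48, 5.05 and 5.62 in LMC radial arrays, and 6.57, 7.10, 6.92 and 6.02 in C3-C5 GFP-only arrays. LMC radial arrays lay below all others except phrenic replicate 4. Without that array it passed as higher in phrenic than in LMC radial neurons (1.13 ± 0.26, limma adjusted p = 0.0253) and as lower in LMC radial than in C3-C5 GFP-only neurons (-1.27 ± 0.25, adjusted p = 0.0175), against 0.77 ± 0.38 (adjusted p = 0.263) and -1.27 ± 0.38 (adjusted p = 0.0915) with it. Kcnq5 had a wide spread, with 7.13 ± 1.01 in phrenic, 5.15 ± 0.98 in LMC radial and 6.13 ± 0.41 in C3-C5 GFP-only arrays (SD, n = 4, 3 and 4), and phrenic minus LMC radial was 1.97 ± 0.55 (limma adjusted p = 0.058).

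Of 6 EAG-family genes, 4 had a mean of 5 or more and 1 passed, Kcnh5, on values near background. Beside this, 10.3% of all genes passed in at least 1 of the 6 comparisons. Kcnh5 read 3.91, 4.26, 4.09 and 2.74 in phrenic arrays, 2.47, 2.30 and 2.45 in LMC radial arrays, and 2.75, 2.87, 2.36 and 2.63 in C3-C5 GFP-only arrays. All values were below 5, so no fold is given for its difference between phrenic and LMC radial (1.34 ± 0.30, limma adjusted p = 0.0246), which was lost without phrenic replicate 2 or 3 or any one LMC radial array (adjusted p up to 0.0875). Kcnh2, the ERG1 channel, averaged 7.50 ± 0.49 in phrenic, 7.01 ± 0.15 in LMC radial and 7.57 ± 0.39 in C3-C5 GFP-only arrays (SD, n = 4, 3 and 4) and did not pass. The 9 silent Kv subunits, which form channels only with other Kv proteins, had 0 calls in the pairwise comparisons by limma, with 1, 0 and 1 at an unadjusted p below 0.05 between phrenic and C3-C5 GFP-only, phrenic and LMC radial, and LMC radial and C3-C5 GFP-only.

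Channels gated by calcium or sodium curb repetitive firing. The 8 members of these families were grouped by name, so not each need be gated in this way. Of these 8, 6 had a mean of 5 or more and 2 passed in a pairwise comparison, both lowest in LMC radial neurons. Among all genes 10.3% passed in at least 1 of the 6 comparisons. Kcnn2 (SK2; 1448927_at) belongs to the SK channels, which underlie the afterhyperpolarization of motor neurons. It read 7.15, 7.58, 7.49 and 6.27 in phrenic arrays, 6.06, 6.57 and 6.13 in LMC radial arrays, and 7.30, 7.43, 7.53 and 7.34 in C3-C5 GFP-only arrays. LMC radial arrays lay below all C3-C5 GFP-only arrays, and phrenic replicate 4 fell among the LMC radial ones. Kcnn2 was 2.21-fold lower in LMC radial than in C3-C5 GFP-only neurons (-1.14 ± 0.27, limma adjusted p = 0.0445), a call lost without any one of phrenic replicate 1, LMC radial replicates 1, 2 and 3 or C3-C5 GFP-only replicates 1, 2, 3 and 4 (adjusted p up to 0.147). Phrenic minus LMC radial was 0.87 ± 0.27 (limma adjusted p = 0.0883), and 1.15 ± 0.16 without phrenic replicate 4 (limma adjusted p = 0.00209).

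Kcnt1 encodes Slack, a sodium-activated channel (1439486_at, chromosome 2). It read 5.81, 5.65, 6.87 and 5.82 in phrenic arrays, 4.95, 4.62 and 4.95 in LMC radial arrays, and 5.88, 5.69, 5.63 and 5.25 in C3-C5 GFP-only arrays. Every LMC radial array was below 5 and below all others. With values below 5 raised to 5, Kcnt1 was at least 2.05-fold higher in phrenic than in LMC radial neurons (1.20 ± 0.27 as measured, limma adjusted p = 0.0242; 0.142 with the floor). The call was lost without any one LMC radial array (limma adjusted p up to 0.0961). A second Kcnt1 probe set passed between phrenic and LMC radial as well (1.22, limma adjusted p = 0.00653). The BK channel Kcnma1 averaged 7.78 ± 0.40 in phrenic, 8.35 ± 0.17 in LMC radial and 7.70 ± 0.20 in C3-C5 GFP-only arrays, and LMC radial minus C3-C5 GFP-only was 0.65 ± 0.20 (limma adjusted p = 0.109), or 0.65 ± 0.13 without phrenic replicate 4 (limma adjusted p = 0.0228). Of the 4 other probe sets of Kcnma1, 1428948_at, with means of 7.45 in phrenic, 8.12 in LMC radial and 7.57 in C3-C5 GFP-only arrays, passed between phrenic and LMC radial (-0.66, limma adjusted p = 0.00638) and between LMC radial and C3-C5 GFP-only (0.54, adjusted p = 0.028). The other bright one, with means of 7.48, 7.10 and 7.27 in the same order, did not pass. Kcnn3 (SK3) averaged 5.36 ± 0.10, 5.31 ± 0.08 and 5.34 ± 0.10 in phrenic, LMC radial and C3-C5 GFP-only arrays, and each of its pairwise differences was within 0.05 with an SE of 0.10. Kcnu1 (Slo3), a relative of BK best known from sperm, read 3.71 to 4.02 in LMC radial, 4.48 to 5.53 in phrenic and 4.12 to 5.23 in C3-C5 GFP-only arrays, near background. It passed only as lower in LMC radial than in the mean of the others (-0.95 ± 0.25, limma adjusted p = 0.0479), a call that held without phrenic replicate 4 or C3-C5 GFP-only replicate 4 and was lost without any one of the other 9 arrays (adjusted p up to 0.175).

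**Figure D4:**
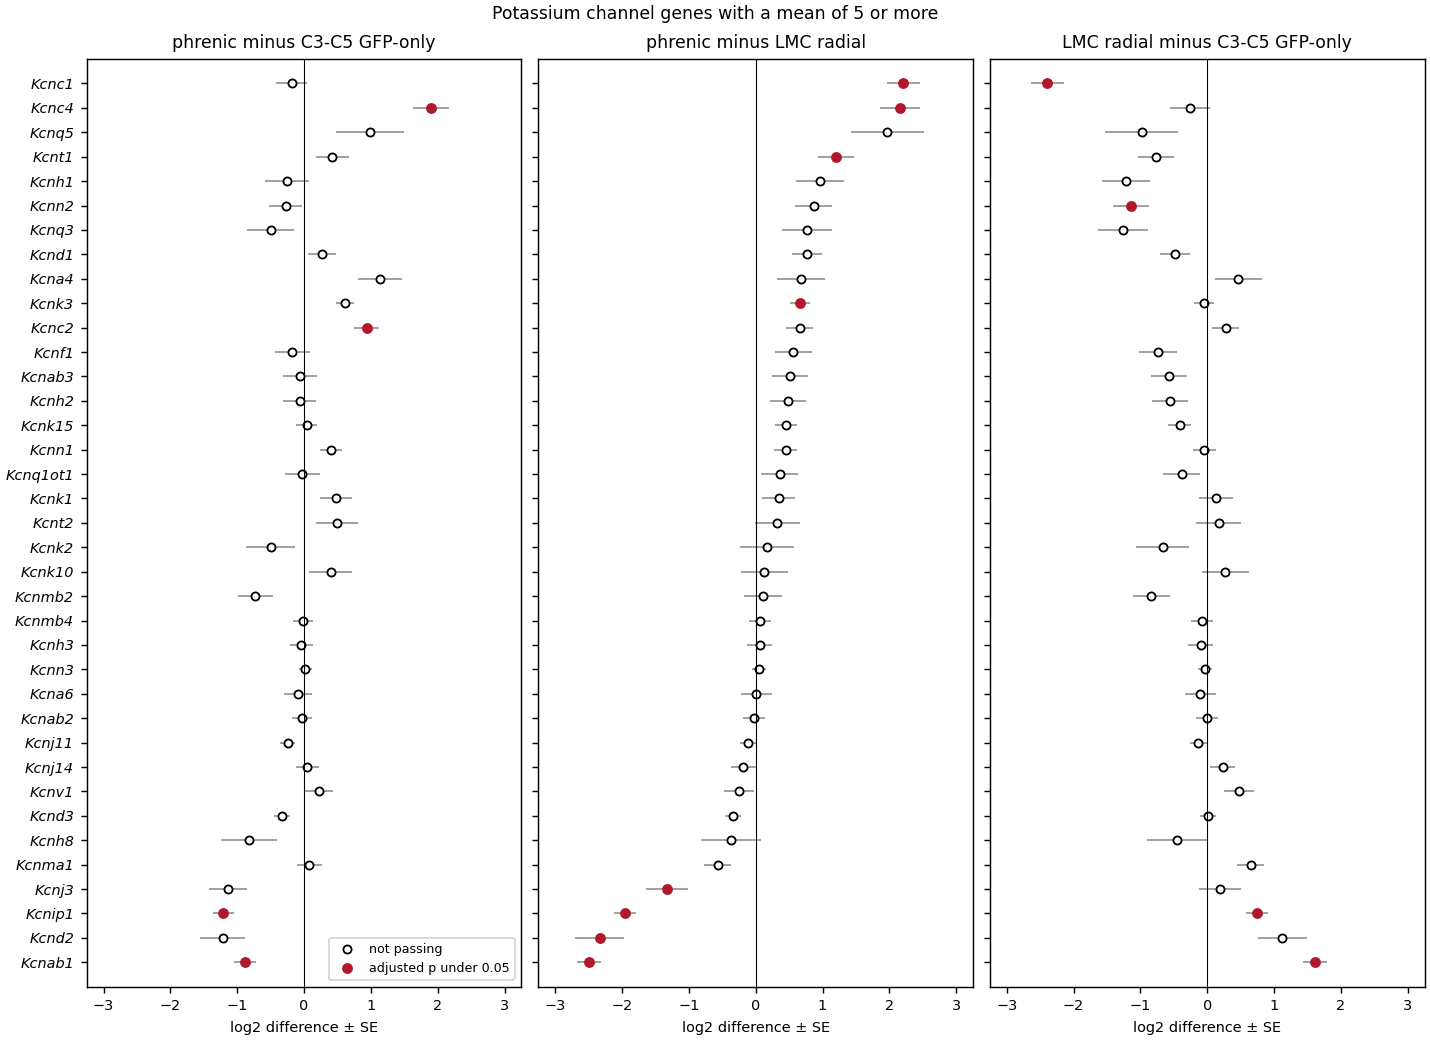
Log2 difference ± SE (horizontal axis) of the 37 potassium channel genes with a mean of 5 or more, in the 3 pairwise comparisons. Filled points passed at an adjusted p below 0.05 (limma). Kcnc1 and Kcnc4 lie near 2 and Kcnab1, Kcnip1 and Kcnd2 near -2 between phrenic and LMC radial.

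Inward rectifiers hold the resting potential, and the GIRK and KATP types couple it to G proteins and to the cell's energy state. Of 15 Kir members, 3 had a mean of 5 or more and 2 passed in a pairwise comparison. This is near the 10.3% of all genes that passed in at least 1 of the 6 comparisons. Kcnj3 (GIRK1; 1455374_at, chromosome 2) read 4.04, 5.35, 5.26 and 4.43 in phrenic arrays, 6.03, 6.47 and 5.80 in LMC radial arrays, and 6.19, 6.09, 5.83 and 5.53 in C3-C5 GFP-only arrays. All phrenic arrays lay below all others. With the floor at 5, Kcnj3 was at least 1.93-fold lower in phrenic than in LMC radial neurons (-1.33 ± 0.31 as measured, limma adjusted p = 0.0299; 0.0575 with the floor). The call was lost without any one LMC radial array (limma adjusted p up to 0.117). Phrenic minus C3-C5 GFP-only was -1.14 ± 0.29 (limma adjusted p = 0.0843).

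Kcnj1 (ROMK, best known from kidney; 1418613_at, chromosome 9) read 4.25, 3.48, 3.71 and 3.90 in phrenic arrays, 4.98, 4.92 and 5.10 in LMC radial arrays, and 3.75, 3.76, 3.73 and 3.62 in C3-C5 GFP-only arrays. LMC radial arrays lay above all others, close to 5. The measured differences passed whichever array was left out (phrenic minus LMC radial -1.16 ± 0.16, limma adjusted p = 0.00168; LMC radial minus C3-C5 GFP-only 1.29 ± 0.16, adjusted p = 0.00213), while with the floor at 5 both folds were at least 1.02. Kcnj11, the pore of KATP channels, averaged 6.33 ± 0.17 in phrenic, 6.44 ± 0.11 in LMC radial and 6.58 ± 0.14 in C3-C5 GFP-only arrays and did not pass. Its regulatory partner Abcc8 (SUR1) read 6.22, 7.17, 7.46 and 6.26 in phrenic arrays, 4.12, 4.81 and 5.05 in LMC radial arrays, and 8.09, 8.19, 8.05 and 7.66 in C3-C5 GFP-only arrays. The types did not overlap, and 2 of the 3 LMC radial arrays were below 5. With the floor at 5, Abcc8 was at least 3.38-fold higher in phrenic than in LMC radial neurons (2.12 ± 0.32 as measured, limma adjusted p = 0.00325; 0.0244 with the floor). It was at least 7.89-fold lower in LMC radial than in C3-C5 GFP-only neurons (-3.34 ± 0.32 as measured, limma adjusted p = 0.000465; 0.00427 with the floor). Kcnj14 (Kir2.4), described in motor neurons of the brainstem, averaged 5.53 ± 0.24, 5.72 ± 0.09 and 5.49 ± 0.32 in phrenic, LMC radial and C3-C5 GFP-only arrays, and its 3 pairwise differences lay between -0.18 and 0.23 with SEs of up to 0.18.

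K2P channels leak potassium at rest and are targets of transmitters, acid and anaesthetics. Of 12 members, 5 had a mean of 5 or more and 2 passed in a pairwise comparison. So few members cannot be told from the 10.3% of all genes that passed in at least 1 of the 6 comparisons. Kcnk3 (TASK1; 1425341_at, chromosome 5), an acid-sensitive leak channel known from motor neurons, read 7.77, 7.83, 8.04 and 7.50 in phrenic arrays, 7.10, 6.95 and 7.30 in LMC radial arrays, and 7.35, 7.01, 7.27 and 7.06 in C3-C5 GFP-only arrays. Every phrenic array lay above every other. Kcnk3 was 1.59-fold higher in phrenic than in LMC radial neurons (0.67 ± 0.15, limma adjusted p = 0.0236), a call lost without LMC radial replicate 1 or 2 or phrenic replicate 2 or 3 (adjusted p up to 0.0981). The same call was lost with quantile normalization, the floor at 5, gene means or the array set as a term. Neither did it hold within the higher array set or when only these 2 types were fitted. Phrenic minus C3-C5 GFP-only was 0.61 ± 0.14 (limma adjusted p = 0.0514), and with the replicate number as a block it passed (0.61 ± 0.11, adjusted p = 0.0348). The other 2 probe sets of Kcnk3 did not pass. Kcnk13 read 3.19 to 3.50 in phrenic, 3.77 to 4.33 in LMC radial and 3.40 to 3.55 in C3-C5 GFP-only arrays, all near background, and its difference between phrenic and LMC radial (-0.69 ± 0.15, limma adjusted p = 0.0192) was lost without LMC radial replicate 1 or 3 (adjusted p = 0.0513 and 0.0686).

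Among the remaining auxiliary subunits, the BK partner Kcnmb1, which overlaps Kcnip1 on chromosome 11, read 2.45 to 3.03 in phrenic, 3.20 to 3.63 in LMC radial and 2.84 to 3.14 in C3-C5 GFP-only arrays, all near background, and its passing difference (phrenic minus LMC radial -0.63 ± 0.16, limma adjusted p = 0.0443) was lost without any one of phrenic replicates 2 and 3, LMC radial replicates 1 and 2 or C3-C5 GFP-only replicates 1, 2, 3 and 4 (adjusted p up to 0.154). The 5 KCNE genes all had means below 5, and 0 passed in the pairwise comparisons by limma, with 2, 1 and 2 at an unadjusted p below 0.05 between phrenic and C3-C5 GFP-only, phrenic and LMC radial, and LMC radial and C3-C5 GFP-only. Kcnmb4, the neuronal BK partner, averaged 7.20 ± 0.09 in phrenic, 7.13 ± 0.15 in LMC radial and 7.21 ± 0.31 in C3-C5 GFP-only arrays. Of the 3 noncoding transcripts, Kcnq1ot1, an imprinted RNA that overlaps Kcnq1, averaged 7.90 ± 0.54, 7.54 ± 0.31 and 7.92 ± 0.31 in phrenic, LMC radial and C3-C5 GFP-only arrays, and 0 passed by limma with 0 at an unadjusted p below 0.05.

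In level, 37 of 84 members (44.0%) had a mean of 5 or more, beside 57.3% of all genes, and 44 members were below 5 in the mean of every type. Of these 37, 10 passed in a pairwise comparison (27.0%, beside 10.9% of all genes at that level) and 27 did not. Of the 70 members that passed in no pair on the chosen probe set, 6 had another probe set that did, and for 1 of these, Kcnma1, it had a mean of 5 or more. The highest and the lowest type mean differed by 1 or more in 16 members (19.0%, beside 6.68% of all genes), and by a median of 0.38 beside 0.30. Among members with a mean of 5 or more this share was 12 of 37 (32.4%, beside 8.92% of all genes at that level). Where the members lay by level and spread is plotted next, and no test was made of these shares.

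**Figure D5:**
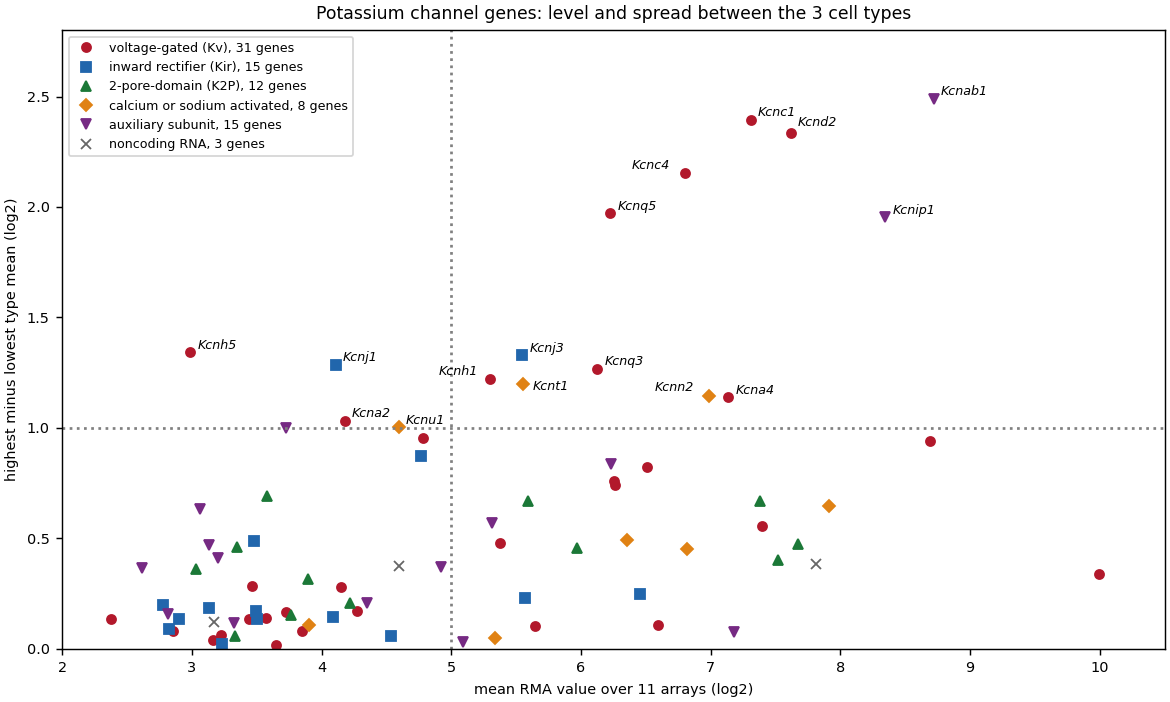
Difference between the highest and lowest type mean (log2, vertical axis) against the mean RMA value over 11 arrays (log2, horizontal axis) for the 84 potassium channel genes. Each point is a gene, the dotted lines mark a mean of 5 and a difference of 1, and the 16 genes at 1 or more are named. Kcnab1, Kcnc1 and Kcnd2 stand at the top, while Kcnd3, the gene with the highest mean, shows a small difference.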

How the data were processed

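RNA of sorted motor neurons was measured on 11 Affymetrix arrays, from 6 ug of Trizol-extracted total RNA per the labels' protocols. The authors deposited RMA values, which are log2 intensities summarised per probe set, per the submitters' processing notes; the version is not given in the sources used here. Of 45101 probe sets, 64 controls were left out, 45037 were tested, and 34945 had 1 symbol in the platform annotation. The 84 members hold 167 probe sets, and 46 members have more than 1. All members were found in the RefSeq gene table by their gene numbers, and 64 of them also in its promoter table. Some channel genes are not reported here.

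Linear models with 1 mean per cell type came from limma 3.58.1 (R 4.3.3; 8 residual and 2.92 prior degrees of freedom), with 6 comparisons and two-sided moderated tests adjusted by Benjamini and Hochberg over all probe sets. The fit was tested on simulated data. Folds against means below 5 use values raised to 5. Named are the members that passed, channels described in motor neurons or axons whatever their result, and the 5 with the highest mean. The members and lists were chosen with earlier results of these data known. Deviations of phrenic and C3-C5 GFP-only arrays with the same replicate number correlated at 0.125, 0.183, 0.224 and 0.177. Pairs with different numbers in the same array set correlated at 0.186, 0.269, 0.280 and 0.179. These correlations do not tell pairing by replicate number from a shared array set, so the replicate block is only an alternative fit. Same-numbered pairs with LMC radial arrays lay between -0.083 and 0.050. Alternatives were quantile normalization, median centring, no dim probe sets, a floor at 5, a trended robust prior, array weights, a replicate block, gene means, array sets, fits of 2 types only, and each array left out. The number of arrays limits the precision.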

Additional observations from a re-analysis of the deposited data

Results flagged for a closer look

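In 23 named members, the 4 phrenic and the 4 C3-C5 GFP-only arrays were each tested for an array far from its replicates (46 Dixon tests), and 2 were found, where chance marks about 1 group in 20. Among 46 tests, 2 flags are no more than chance alone gives. Kcnt1 stood at 6.87 in phrenic replicate 3, with the other phrenic arrays between 5.65 and 5.82, a gap of 0.862 of the range. Without that array Kcnt1 still passed as higher in phrenic than in LMC radial neurons (limma adjusted p = 0.014), and also as lower in LMC radial than in C3-C5 GFP-only neurons (-0.77 ± 0.16, adjusted p = 0.0292). Kcna1 stood at 5.86 in phrenic replicate 4, with the other phrenic arrays between 3.48 and 3.71, a gap of 0.904 of the range. Without it Kcna1 passed in none of the pairwise comparisons (limma adjusted p = 0.186, 0.311 and 0.524).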

How the results depend on the processing

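With all arrays 9, 12 and 2 members passed against the mean of the others in phrenic, LMC radial and C3-C5 GFP-only neurons, and 4, 12 and 5 in phrenic minus C3-C5 GFP-only, phrenic minus LMC radial and LMC radial minus C3-C5 GFP-only. Leaving out each array in turn gave 6 to 12, 5 to 18, 0 to 3, 2 to 7, 7 to 18 and 3 to 9 in that order. The lowest LMC radial counts against the mean (5) and against phrenic (7) came without LMC radial replicate 1 (7 also without replicate 2), and the highest in all 6 comparisons without phrenic replicate 4. In C3-C5 GFP-only against the mean that highest count, 3, also came without phrenic replicate 2 or 3 or C3-C5 GFP-only replicate 1. The floor at 5 left 3 (LMC radial) and 0 (C3-C5 GFP-only; 9 at an unadjusted p below 0.05, limma) against the mean, and 2, 5 and 2 in the pairs. Leaving out dim probe sets gave 7 in LMC radial and 1 in C3-C5 GFP-only against the mean, and gene means gave 1 in C3-C5 GFP-only. Array weights gave 23 and 4 in these, 19 in phrenic minus LMC radial and 21 in LMC radial minus C3-C5 GFP-only. The replicate block gave 19 in LMC radial against the mean and 19 in phrenic minus LMC radial. It gave 9 in LMC radial minus C3-C5 GFP-only, and the numbers do not pair LMC radial arrays with the others. In phrenic minus C3-C5 GFP-only it left 4 and changed only the calls of Kcnab1 and Kcnk3. Whether the numbers pair arrays there is not settled. The array set as a term gave 6 in LMC radial against the mean, 7 in phrenic minus LMC radial and 3 in LMC radial minus C3-C5 GFP-only. The 7 higher-set arrays gave 3, 4 and 0 against the mean and 0, 6 and 1 in the pairs, where the counts of 0 held 10 and 12 members at an unadjusted p below 0.05, and the lower set gave 1 in phrenic minus C3-C5 GFP-only. Fits of 2 types only gave 2, 6 and 12 in the pairs. Kcnab1, Kcnip1, Kcnd2 and Kcnc1 passed between phrenic and LMC radial under every setting run for that comparison, and no call turned its direction. These were 4 of its 12 calls. Calls kept under every setting were 0 of 4 in phrenic minus C3-C5 GFP-only and 0 of 5 in LMC radial minus C3-C5 GFP-only. Against the mean they were 2 of 9 in phrenic, 3 of 12 in LMC radial and 0 of 2 in C3-C5 GFP-only neurons. Shares of all genes are given only for the main fit and the fit without phrenic replicate 4. The other counts therefore do not tell whether channel genes moved more than genes at large. Why the counts moved was not tested beyond the smaller number of arrays or genes in some settings. Signal near background limits the 47 members with a mean below 5.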

Other observations

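Among the 20 measured channel partners, Cntn2, an axonal adhesion protein that gathers Kv1 channels beside nodes, read 7.61, 7.72, 8.06 and 8.86 in phrenic arrays, 8.62, 8.64 and 8.48 in LMC radial arrays, and 9.35, 9.43, 9.28 and 9.64 in C3-C5 GFP-only arrays. All phrenic arrays lay below all C3-C5 GFP-only arrays, and Cntn2 was the 1 partner that passed between these types (-1.36 ± 0.23, limma adjusted p = 0.0123). Adam22, which sits in Kv1 complexes, averaged 10.54 in phrenic, 9.99 in LMC radial and 10.66 in C3-C5 GFP-only arrays. It was higher in phrenic than in LMC radial neurons (0.56 ± 0.13, limma adjusted p = 0.0279) and lower in LMC radial than in C3-C5 GFP-only neurons (-0.68 ± 0.13, adjusted p = 0.0182). Hcn3, a cation channel that opens on hyperpolarization, read 6.28, 6.52, 6.80 and 6.24 in phrenic arrays, 5.55, 5.76 and 5.63 in LMC radial arrays, and 6.30, 6.30, 6.20 and 5.43 in C3-C5 GFP-only arrays. It passed narrowly between phrenic and LMC radial (0.82 ± 0.22, limma adjusted p = 0.0493). With values below 5 raised to 5 across the arrays that difference no longer passed (limma adjusted p = 0.156).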
